A study of Homo sapiens with 15 samples.

Results

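The short arm of chromosome 19 (19p) carries 83 protein-coding genes named ZNF followed by digits, of 20037 protein-coding genes in the RefSeq table used here (GRCh38.p14, which is hg38). They were chosen by symbol and by a start below 26.2 Mb, and not by any measured value, though earlier results of these data were known. Of these, 46 start below 16 Mb and are called 19p13 genes here, and 37 start above 19 Mb and are called 19p12 genes; no member lies between. The genes were examined for MPP8 binding, measured by ChIP-seq in K-562, a cell line from a chronic myeloid leukaemia, in the deposited peak lists of 1 library from TASOR KO cells and 1 library from TASOR2 KO cells. Both lines were clones edited with CRISPR/Cas9, and both libraries used the same MPP8 antibody and a mouse chromatin spike-in. The protocols also describe lentiviral vectors, but the titles of these samples name no transgene. Peak lists give no expression, so the cell line was not checked against marker genes. The other 13 samples of the series, the unedited cells among them, were not analysed here.

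Most ZNF genes of 19p encode proteins with arrays of C2H2 zinc fingers that read DNA sequence, and many also carry a KRAB domain, which recruits the corepressor TRIM28 and with it methylation of histone H3 lysine 9. They lie in clusters that arose by tandem duplication, and in most of them a long last exon encodes the whole finger array. MPP8 is the chromodomain subunit of the human silencing hub (HUSH), binds methylated H3 lysine 9, and acts with the scaffold protein TASOR, of which TASOR2 is a paralog. ZNF91 and ZNF93, both on 19p12, are known for binding SVA and LINE-1 retrotransposons.

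TASOR KO peaks covered the promoters of several 19p13 genes that lie close together, so promoter sequences are shown first. Promoter windows were available for 73 of the 83 members (RefSeq, GRCh38.p14), and the 250 bases before the gene start were used. A TASOR KO peak covered all 250 bases in 7 of the 73, namely ZNF136, ZNF266, ZNF177, ZNF560, ZNF121, ZNF561 and ZNF93, a share of 9.59% (3.94 to 18.8) against 0.568% of all promoters (0.631% where any overlap is counted, by which the members were again 7). ZNF genes outside 19p had a wholly covered promoter in 27 of 357 (7.56%, 5.04 to 10.8). A TASOR2 KO peak overlapped a promoter in 0 of the 73 members, against 0.00631% of all promoters (1 of 15843). The promoters under the 3 strongest of these peaks follow, 5′ to 3′, with matches to the searched motifs in capitals.
ZNF136 (chr19:12162846-12163095, plus strand): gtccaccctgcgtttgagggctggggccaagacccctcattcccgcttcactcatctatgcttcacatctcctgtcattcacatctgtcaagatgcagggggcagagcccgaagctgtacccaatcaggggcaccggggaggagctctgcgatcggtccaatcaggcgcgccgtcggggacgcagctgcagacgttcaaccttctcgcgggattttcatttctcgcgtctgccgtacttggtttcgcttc
ZNF266 (chr19:9435574-9435823, minus strand): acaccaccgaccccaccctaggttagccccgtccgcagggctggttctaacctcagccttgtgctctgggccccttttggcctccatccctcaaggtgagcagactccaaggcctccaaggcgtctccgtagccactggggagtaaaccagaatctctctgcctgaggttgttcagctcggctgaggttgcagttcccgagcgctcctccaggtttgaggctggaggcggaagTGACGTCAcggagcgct
ZNF177 (chr19:9362763-9363012, plus strand): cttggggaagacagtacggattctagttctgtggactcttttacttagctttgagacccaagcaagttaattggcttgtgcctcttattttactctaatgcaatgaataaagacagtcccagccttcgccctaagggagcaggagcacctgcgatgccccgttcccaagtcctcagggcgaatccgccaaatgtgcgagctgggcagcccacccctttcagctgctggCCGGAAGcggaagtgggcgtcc
The capitals in ZNF266 mark TGACGTCA, the cyclic AMP response element, and those in ZNF177 mark CCGGAAG, a core bound by ETS factors. None of the motifs searched was present in the ZNF136 window.

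ZNF266, ZNF560, ZNF121 and ZNF561, which all had a TASOR KO peak over the promoter, shared 12 letters close to the start, CGGAAGTGACGT, the longest run present in at least 4 of the 7 covered promoters. The 75 bases before the start of 3 of them, and of their neighbour ZNF562, which had no peak, are printed because they carry the same letters, here in capitals.
ZNF560 (chr19:9498617-9498691, minus strand): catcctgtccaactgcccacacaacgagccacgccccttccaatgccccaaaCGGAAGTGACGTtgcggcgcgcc
ZNF121 (chr19:9584505-9584579, minus strand): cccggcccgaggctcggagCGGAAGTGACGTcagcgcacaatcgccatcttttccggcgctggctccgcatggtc
ZNF561 (chr19:9621233-9621307, minus strand): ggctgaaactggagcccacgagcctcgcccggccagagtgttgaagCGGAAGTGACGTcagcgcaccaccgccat
ZNF562 (chr19:9675101-9675175, minus strand): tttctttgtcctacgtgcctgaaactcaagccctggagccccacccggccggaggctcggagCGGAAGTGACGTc
The letters began between 13 and 56 bases before the start in the 5 genes, and the longest run shared between any pair of the 7 covered promoters had 22 bases, between ZNF121 and ZNF561. On either strand, the 12 letters were found in 5 of 44 windows of 19p13 members (11.4%), 0 of 29 windows of 19p12 members, 0 of 357 windows of ZNF genes elsewhere and 53 of 15843 windows of all protein-coding genes (0.335%). With 1 letter fewer at each end the members with a match were again 5, against 3 of 357 ZNF genes elsewhere (0.840%) and 168 of 15843 genes (1.06%). The letters were taken from the covered promoters, so 4 of the 5 matches, all but that of ZNF562, were fixed by that choice. The shares are therefore no measure of enrichment. The 5 genes lie close together but not in an unbroken row, since ZNF426, between ZNF560 and ZNF121, did not carry the letters. The match is a description of sequence only. Of the 4 covering peaks, only that at ZNF266 reached a q of 0.05 or less. Those at ZNF560, ZNF121 and ZNF561 had −log10 q from 0.610 to 0.626.

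The motifs searched, on both strands, were ETS CCGGAAG, YY1 AAGATGGC, the NRF1 palindrome, the response element TGACGTCA, the GC box GGGCGG and TATAAA. In the 73 member promoters CCGGAAG was found in 25 (34.2%), against 13.98% of all promoters, and GGGCGG in 60 (82.2%), against 62.1%. TGACGTCA was found in 4 members (5.48%, against 2.73%), and 3 of these, ZNF266, ZNF121 and ZNF561, were among the 7 with a covering TASOR KO peak. In these 3 it overlaps the shared 12 letters. CCGGAAG was found in 1 of the 7 covered promoters (14.3%) and GGGCGG in 3 of the 7 (42.9%), lower shares than among all 73. The 4 covered promoters with the shared 12 letters hold CGGAAG but lack the first C of CCGGAAG there, so the strict search did not count them. Whether the share of CGGAAG is also lower in the covered promoters was not tested. TATAAA was found in 3 (4.11%, against 11.9%), AAGATGGC in 1 (1.37%, against 1.77%) and the NRF1 palindrome in 1 (1.37%, against 1.72%). The median GC content was 60.6% in 44 promoters of 19p13, 56% in 29 of 19p12 and 61.6% in the 7 covered promoters, against 62% in all promoters. The 7 covered promoters (54% to 65.6%) lay within the range of the other 66 (48.8% to 74.4%).

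A peak was counted for a gene when it overlapped the gene body or lay within 1 kb of either end. By this rule 16 of the 83 members (19.3%, exact binomial 95% interval 11.4 to 29.4) had a TASOR KO peak, against 1.12% of all protein-coding genes. A TASOR2 KO peak was present at 18 members (21.7%, 13.4 to 32.1), against 0.893% of all protein-coding genes. Peaks of both lists were found at 6 members (7.23%, 2.70 to 15.1, against 0.170%), namely ZNF266, ZNF121, ZNF69, ZNF564, ZNF493 and ZNF100. With 1 library per genotype no replicate error or p-value can be given. The intervals hold counting error alone and treat genes as independent, which neighbouring duplicates are not. Sequencing depth is unknown because the lists do not give it.

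Peaks at members had a median rank of 248 of 427 in TASOR KO (56 to 423) and 112 of 264 in TASOR2 KO (39 to 253). The authors' −log10 q, a measure of how far a peak stood above its background, had a median of 0.626 (range 0.367 to 2.91) over the 17 TASOR KO peaks at members, against 0.796 over all 427 peaks of that list. Over the 17 TASOR2 KO peaks at members it was 1.17 (0.637 to 1.74), against 1.06 over all 264 peaks. The lists ended at unlike values. The lowest was 0.337 over the whole TASOR KO list, while the TASOR2 KO list stopped higher, at 0.588. TASOR KO peaks at ZNF93 (0.367), ZNF493 (0.425) and ZNF100 (0.482) lay below that 0.588. ZNF493 and ZNF100 thus had peaks of both lists only through such weak peaks. With the 264 highest scoring TASOR KO peaks alone, 13 members had a TASOR KO peak and 4 had peaks of both lists. A q of 0.05 or less was reached at 4 members in TASOR KO (4.82%, 1.33 to 11.9, against 0.514% of all protein-coding genes), which were ZNF136, ZNF266, ZNF559 and ZNF177. In TASOR2 KO it was reached at 3 members (3.61%, 0.752 to 10.2, against 0.299%), which were ZNF100, ZNF14 and ZNF266. ZNF266 was thus the 1 member with such a peak in both lists, against 0.0200% of protein-coding genes. The authors' fold enrichment ran from 2.90 to 4.29 in TASOR KO and from 3.55 to 4.42 in TASOR2 KO at members, and values are compared only within a list.

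**Figure D1:**
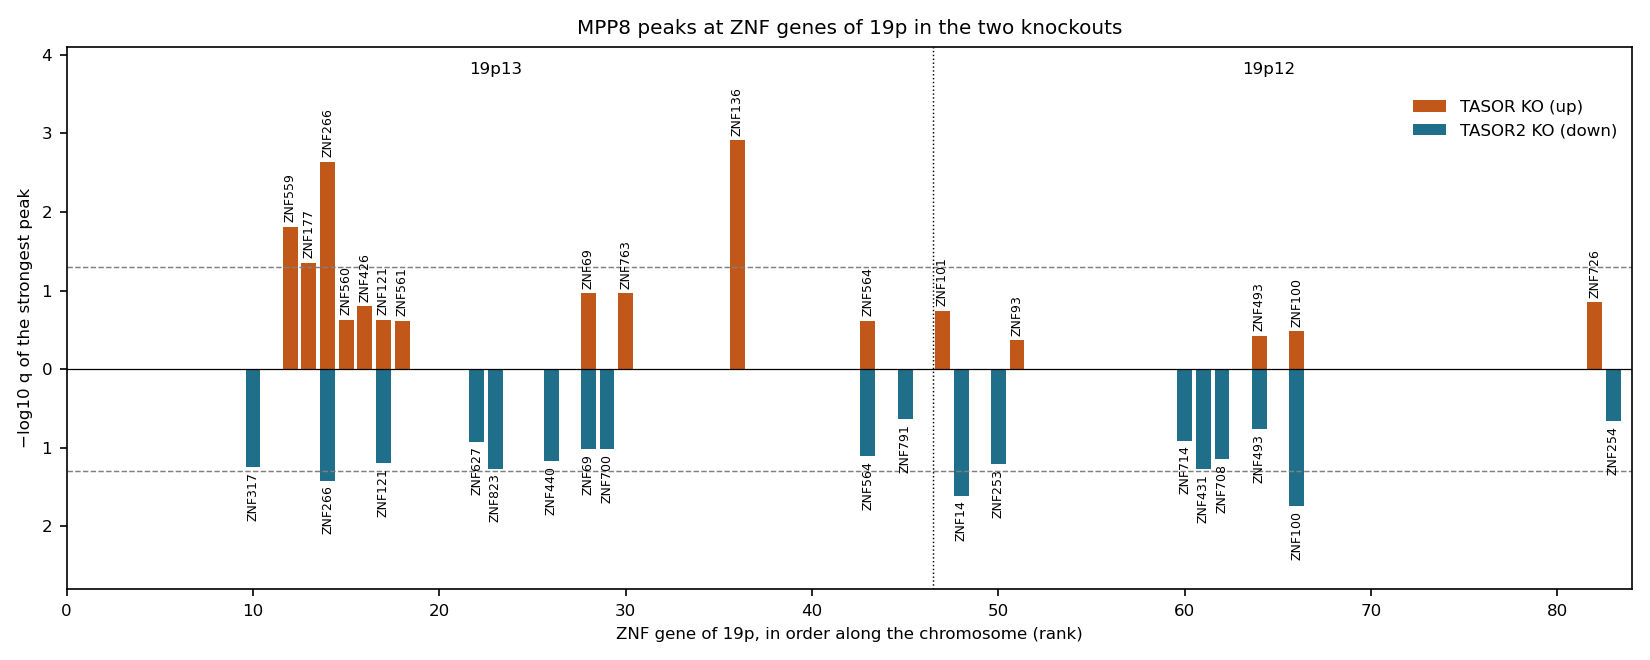
Bars give the authors' −log10 q of the strongest peak at each of the 83 ZNF genes of 19p, upwards for TASOR KO and downwards for TASOR2 KO, with genes ranked along the chromosome on the horizontal axis and dashed lines at a q of 0.05. A block of 7 neighbouring 19p13 genes, ZNF559 to ZNF561, has a bar in TASOR KO, and 15 neighbouring 19p12 genes, ZNF43 to ZNF681, have no bar in either list.

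In 19p13, 11 of 46 genes had a TASOR KO peak (23.9%, 12.6 to 38.8), and in 19p12, 5 of 37 (13.5%, 4.54 to 28.8). The odds ratio of 19p13 over 19p12 was 1.995 with an exact 95% interval of 0.563 to 8.15, so the shares could not be told apart at these numbers. When the TASOR KO list was shortened to its 264 highest scoring peaks, 11 and 2 genes had a peak and the odds ratio was 5.40 (1.06 to 53.7), so that its interval no longer included 1. This result depends on the place of the cut. Among the 11, ZNF560, ZNF121, ZNF564 and ZNF561 were kept only through peaks ranked 248, 249, 252 and 258. ZNF69 and ZNF763 were counted through 1 shared peak. Other cuts by rank were not tested. The peaks that reached a q of 0.05 were at 4 of the 46 genes of 19p13 (8.70%, 2.42 to 20.8) and at 0 of the 37 genes of 19p12 (exact upper bound 9.49%). The highest −log10 q was 2.91 in 19p13 and 0.850 in 19p12.

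The TASOR KO peaks of 19p13 were not spread evenly. All 7 neighbouring members from ZNF559 to ZNF561, within 297 kb (9323772 to 9621232), had a TASOR KO peak, and the only other protein-coding entry between them was the readthrough ZNF559-ZNF177. In the other 39 members of 19p13 there were 4 with a TASOR KO peak (10.3%), a share below the 13.5% of 19p12. This block was singled out after its values were seen, and its counts are given without a test. In TASOR2 KO, 2 of the 7 genes and 8 of the other 39 had a peak.

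TASOR2 KO peaks were found at nearly equal shares of 19p13 and 19p12 genes. In 19p13, 10 of 46 genes had one (21.7%, 10.9 to 36.4), and in 19p12, 8 of 37 (21.6%, 9.83 to 38.2), with an odds ratio of 1.01 (0.311 to 3.35). The median −log10 q was 1.17 over 9 peaks in 19p13 and 1.18 over 8 peaks in 19p12. Genes of 19p12 were longer, with a median of 34.6 kb (15.4 to 96.5) against 21.0 kb (4.49 to 92.4) in 19p13, and the part of gene length in these shares was not tested.

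Other genes of the arm had few peaks. Among protein-coding genes outside the ZNF set, 4 of 455 in 19p13 had a TASOR KO peak (0.879%, 0.240 to 2.24) and 1 had a TASOR2 KO peak (0.220%, 0.00556 to 1.22). In 19p12, 0 of 24 such genes had a peak of either list (upper bound 14.2%). The 4 were the zinc transporter gene SLC39A3, FBXL12, which encodes an F-box protein, UBL5, which encodes a ubiquitin-like protein, and the readthrough ZNF559-ZNF177. MYO1F, a myosin gene, was the 1 gene in TASOR2 KO.

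Over all peaks, the share of ZNF genes with a peak was close to that of the members on the long arm and lower on other chromosomes. At a q of 0.05 or less the counts were too small to tell these sets apart. On 19q a TASOR KO peak was present at 31 of 163 ZNF genes (19.02%) and a TASOR2 KO peak at 37 (22.7%), and the odds ratios of 19p over 19q were 1.02 (0.483 to 2.08) and 0.943 (0.467 to 1.85). On other chromosomes the counts were 15 of 263 (5.70%) and 24 of 263 (9.13%), and the odds ratios of 19p over these were 3.93 (1.72 to 9.02) and 2.75 (1.32 to 5.65). At a q of 0.05 or less the TASOR KO shares were 4.82% on 19p, 10.4% on 19q and 3.80% on other chromosomes, and the odds ratios of 19p over the other sets were 0.436 (0.103 to 1.40) and 1.28 (0.285 to 4.59). The TASOR2 KO shares were 3.61%, 6.75% and 3.80%, with odds ratios of 0.519 (0.0905 to 2.04) and 0.949 (0.164 to 3.81). All 4 intervals included 1. Those against other chromosomes also included the odds ratios found over all peaks, so these counts cannot say whether that difference holds among the stronger peaks. Among 13 genes of the HUSH and TRIM28 pathway (TRIM28, SETDB1, ATF7IP, ATRX, CBX1, CBX3, CBX5, ZNF274, MORC2, MPHOSPH8, PPHLN1, TASOR and TASOR2), 1 had a TASOR KO peak, TASOR2 itself, with a −log10 q of 5.33, and 0 had a TASOR2 KO peak.

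**Figure D2:**
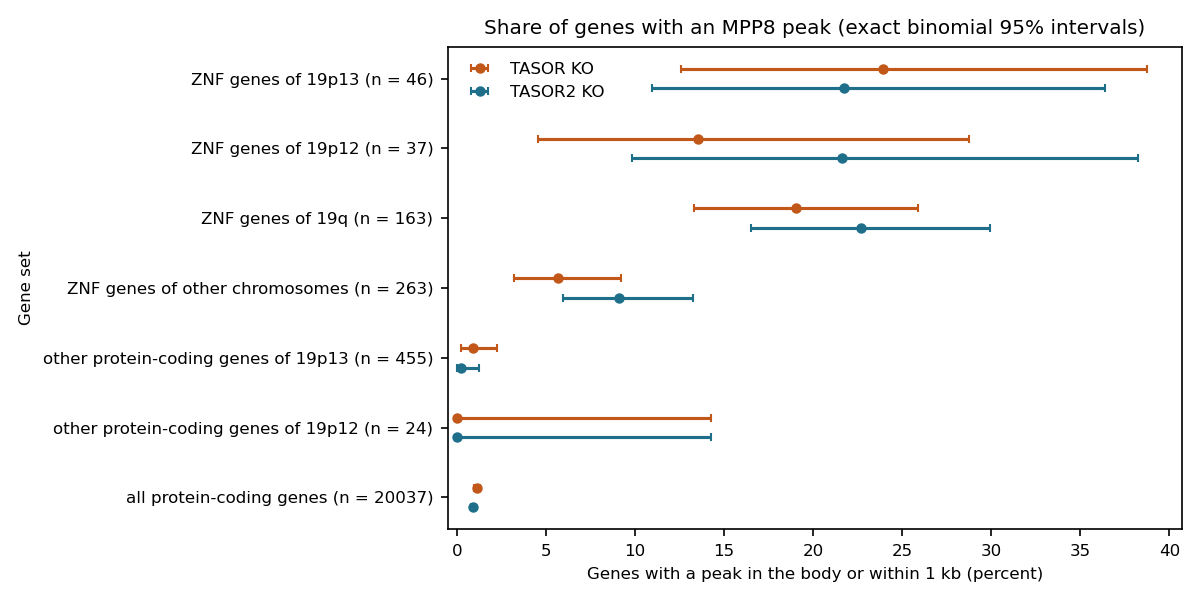
Points give the percent of genes in each set (vertical axis, with the number of genes) that had an MPP8 peak in the body or within 1 kb, with bars for exact binomial 95% intervals, for TASOR KO and TASOR2 KO. ZNF genes of 19p13, 19p12 and 19q lie between 13.5% and 23.9%, while other protein-coding genes of 19p13 lie below 1%.

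The position of a peak along a gene differed between the lists, which share no overlapping peak anywhere. The RefSeq promoter table gives the strand of 73 members, so a gene start and a gene end could be told apart in 16 gene and peak pairs of TASOR KO and 17 of TASOR2 KO. In TASOR KO the peak lay within 1 kb of the gene start in 7 of 16 pairs (43.8%, 19.8 to 70.1), against 46.1% of pairs over all protein-coding genes. In TASOR2 KO it did so in 0 of 17 (upper bound 19.5%), against 1.14% over all protein-coding genes. Between the lists, the odds ratio for a place at the start had an exact 95% interval that began at 2.06. This interval treats the pairs of 1 library each as independent, and the lists end at unlike scores. It describes the lists and is no test between genotypes. Within 5 kb of the start the counts were again 7 of 16 (43.8%, against 48.7%) and 0 of 17 (against 4%).

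At gene ends the larger share was that of TASOR2 KO. A TASOR2 KO peak lay within 5 kb of the gene end in 15 of 17 pairs (88.2%, 63.6 to 98.5), against 46.3% over all protein-coding genes, and a TASOR KO peak in 4 of 16 (25%, 7.27 to 52.4, against 11.2%). The odds ratio, with TASOR KO in the numerator, was 0.0507 (0.00395 to 0.354), which again describes the lists and is no test between genotypes. Within 1 kb of the end the counts were 8 of 17 (47.1%, against 18.3%) and 3 of 16 (18.8%, against 6.47%), and the interval of the odds ratio, 0.0361 to 1.54, included 1. In all 17 TASOR2 KO pairs the peak centre was nearer to the gene end than to the start (exact lower bound 80.5%), against 76.6% over all protein-coding genes. In TASOR KO this held for 6 of 16 pairs, against 26.3% over all protein-coding genes.

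TASOR KO peaks at gene starts were found in 5 of 11 pairs of 19p13 and 2 of 5 pairs of 19p12. ZNF136 (gene 12163096 to 12189871) had the strongest TASOR KO peak of the members, 5013 bp wide (12159944 to 12164956, fold 4.24, −log10 q 2.91, rank 56 of 427), centred 0.646 kb before the start. At ZNF266 (gene 9412429 to 9435573) the peak (9434754 to 9437433, fold 4.29, −log10 q 2.64) was centred 0.521 kb before the start, and at ZNF561 a weaker peak of 605 bp (−log10 q 0.610) was centred 0.115 kb before it. Peaks at ZNF177 (5256 bp, −log10 q 1.35) and ZNF121 (5173 bp, −log10 q 0.624) spanned the start and were centred 1.62 kb and 2.20 kb inside the gene. On 19p12 the peak at ZNF101 (−log10 q 0.741) was centred 1.18 kb inside the gene. The peak at ZNF93, the LINE-1 binding gene, was centred 0.318 kb before the start and was the weakest at any member (−log10 q 0.367, rank 423 of 427).

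A further TASOR KO peak, at ZNF560 (9498371 to 9498989, −log10 q 0.626), lay 8.01 kb inside the longest annotated form of the gene and covered the promoter entry of a shorter form. With starts taken from the promoter table, 8 of the 16 pairs lay within 1 kb of a start. The peak at ZNF559 (9321321 to 9324823, −log10 q 1.81) was centred 0.700 kb from the lower-coordinate end of the gene, for which no strand was used here.

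The other TASOR KO peaks lay inside the gene or at its end. ZNF426 had a pair of peaks, centred 1.07 kb and 5.13 kb before the gene end (−log10 q 0.799 and 0.507). At ZNF564 the centre was 7.86 kb inside from the start (−log10 q 0.617), at ZNF493 it was 8.87 kb before the end (0.425) and at ZNF100 11.9 kb before the end (0.482). At ZNF726 the peak lay wholly past the gene end, with its centre 2.78 kb beyond it (−log10 q 0.850). ZNF69 had peaks 17.4 kb after its start (−log10 q 0.425) and 0.671 kb before its end (0.965), the latter also lying 1.07 kb from the upper end of ZNF763. The ZNF69 entry is 92.4 kb long and spans ZNF700, so counts at these genes share peaks.

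TASOR2 KO peaks of 19p13 sat just inside the gene end in most genes. The centre lay before the end by 0.538 kb to 3.10 kb at ZNF317 (1.60 kb), ZNF121 (3.10 kb), ZNF627 (1.42 kb), ZNF823 (0.925 kb), ZNF440 (1.37 kb), ZNF700 (0.538 kb), ZNF564 (0.630 kb) and ZNF791 (2.52 kb). Expressed as a share of gene length, ZNF317, ZNF627 and ZNF440 were nearly alike, at 93.03%, 93.45% and 93.43% of the way from start to end. At ZNF266 the peak straddled the end (9410637 to 9413141) and was centred 0.540 kb beyond it. ZNF121 had the widest peak of the members, 10088 bp (9558381 to 9568468, −log10 q 1.19), covering the last part of the gene and its end. The exception was ZNF69, where the peak, shared with ZNF700, lay 30.0 kb before the end of the long entry.

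On 19p12, too, most TASOR2 KO peaks lay near the gene end. ZNF100 (gene 21722771 to 21767579) had the strongest TASOR2 KO peak of the members (21725375 to 21727415, fold 4.42, −log10 q 1.74, rank 39 of 264), centred 3.62 kb before the end. ZNF14 followed (19710344 to 19711669, −log10 q 1.61), centred 0.535 kb before the end. The centres at ZNF708, ZNF493, ZNF714 and ZNF431 lay 2.57 kb, 2.77 kb, 5.09 kb and 11.4 kb before the end, with −log10 q from 0.766 to 1.28. At ZNF254 the peak lay wholly past the end, by 1.23 kb at its centre (−log10 q 0.660). At ZNF253, for which no strand was used, the centre was 1.61 kb from the upper end and 27.2 kb from the lower. The median distance of the centre before the end was 1.40 kb over 10 pairs in 19p13 (quartiles 0.704 and 2.29) and 2.77 kb over 7 pairs in 19p12 (1.55 and 4.36), ranges that overlapped, and as a share of gene length the medians were 93.4% and 91.9%.

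In the members with peaks of both lists the peaks did not overlap, but the lists shared no overlapping peak anywhere (0 of the 427 peaks in TASOR KO, 26 of them on 19p, and 0 of the 264 in TASOR2 KO, 20 of them on 19p). The lack of overlap is therefore a property of the whole lists and says nothing particular of these genes, and whether overlapping peaks were removed before deposit is not known here. At ZNF266, ZNF121, ZNF564, ZNF100 and ZNF493 the TASOR2 KO centre lay nearer the gene end than the TASOR KO centre, by 24.2 kb, 18.9 kb, 17.6 kb, 8.30 kb and 6.09 kb. The gap between the peaks was 5.01 kb at ZNF493, the smallest on 19p. At ZNF69 the TASOR2 KO peak lay between the pair of TASOR KO peaks.

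**Figure D3:**
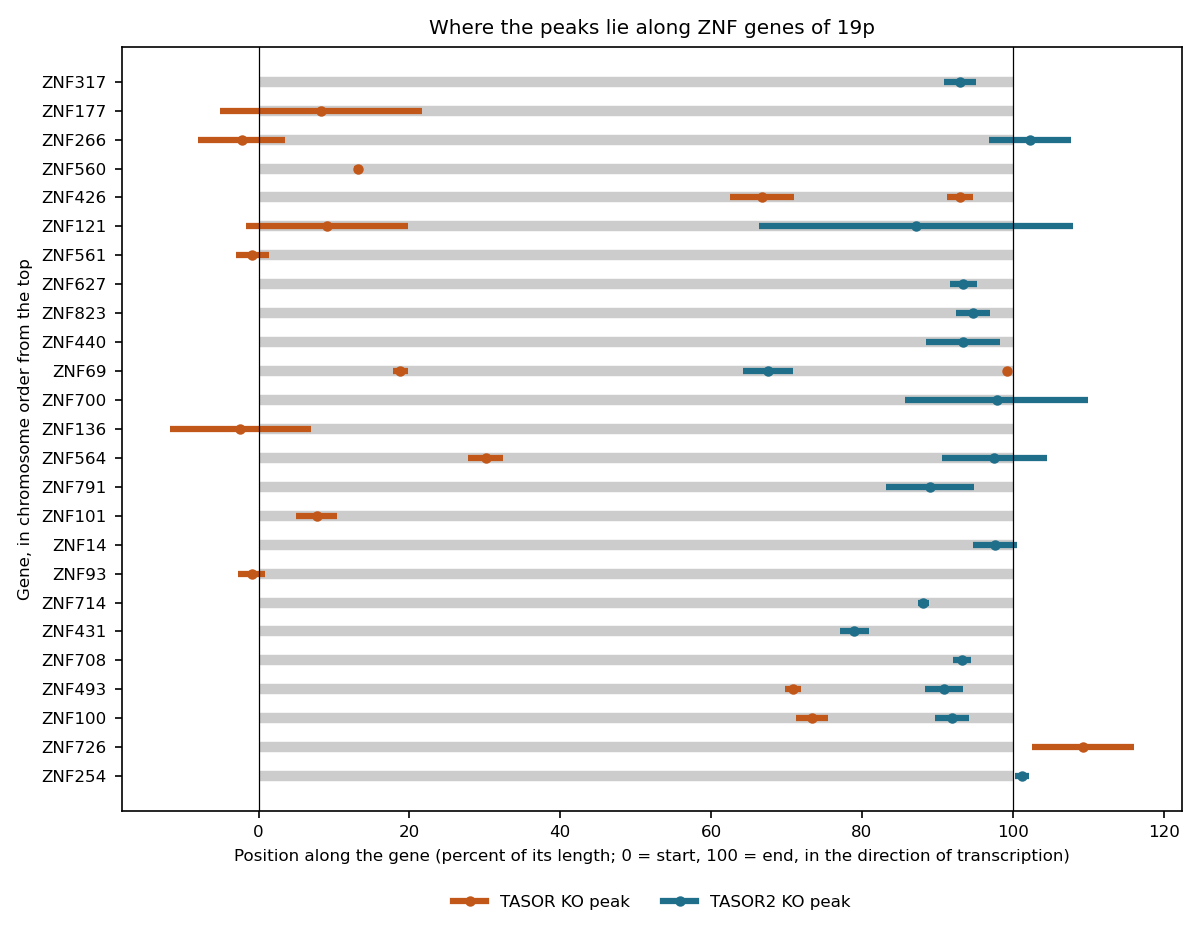
Each grey bar is a ZNF gene of 19p with a peak and a known strand, scaled from start (0) to end (100 percent of its length, horizontal axis), with TASOR KO and TASOR2 KO peaks drawn to their width and a dot at the centre. TASOR2 KO dots lie at 67.5% or more of the gene in all 17 pairs, and TASOR KO dots are found from before the start to past the end.

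The share of TASOR2 KO pairs within 5 kb of the gene end on 19p could not be told apart from ZNF genes elsewhere. A TASOR2 KO peak lay within 5 kb of the gene end in 26 of 35 pairs on 19q (74.3%, 56.7 to 87.5) and in 16 of 22 on other chromosomes (72.7%, 49.8 to 89.3), and the odds ratios of 19p over these were 2.55 (0.440 to 27.4) and 2.74 (0.405 to 31.9). In protein-coding genes outside the ZNF set it did so in 24 of 101 pairs (23.8%, 15.9 to 33.3), with an odds ratio of 23.3 (4.90 to 224) for 19p over these. These genes were longer, with a median of 73.1 kb against 25.9 kb for the members with a TASOR2 KO peak, and a window of 5 kb is a smaller part of them; the part of length in this difference was not tested. As a share of gene length the median centre was 93.3% in the members (quartiles 89.0 and 97.6) and 71.5% in genes outside the ZNF set. On 19q it was 86.5% (79.0 and 95.1), and on other chromosomes 82.3% (66.3 and 88.6), so these medians lay further from the end. Whether that exceeds counting error was not tested. Within 1 kb of the end the shares were 47.1% on 19p, 28.6% on 19q and 18.2% on other chromosomes. The odds ratios of 19p over these had intervals of 0.561 to 8.67 and 0.777 to 22.6, which included 1.

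TASOR KO peaks lay within 1 kb of the start in 19 of 33 pairs on 19q (57.6%, 39.2 to 74.5), 11 of 17 on other chromosomes (64.7%, 38.3 to 85.8) and 70 of 166 in genes outside the ZNF set (42.2%, 34.6 to 50.1). The odds ratios of 19p over these were 0.580 (0.144 to 2.24), 0.436 (0.0831 to 2.11) and 1.07 (0.321 to 3.39), all with intervals that included 1.

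**Figure D4:**
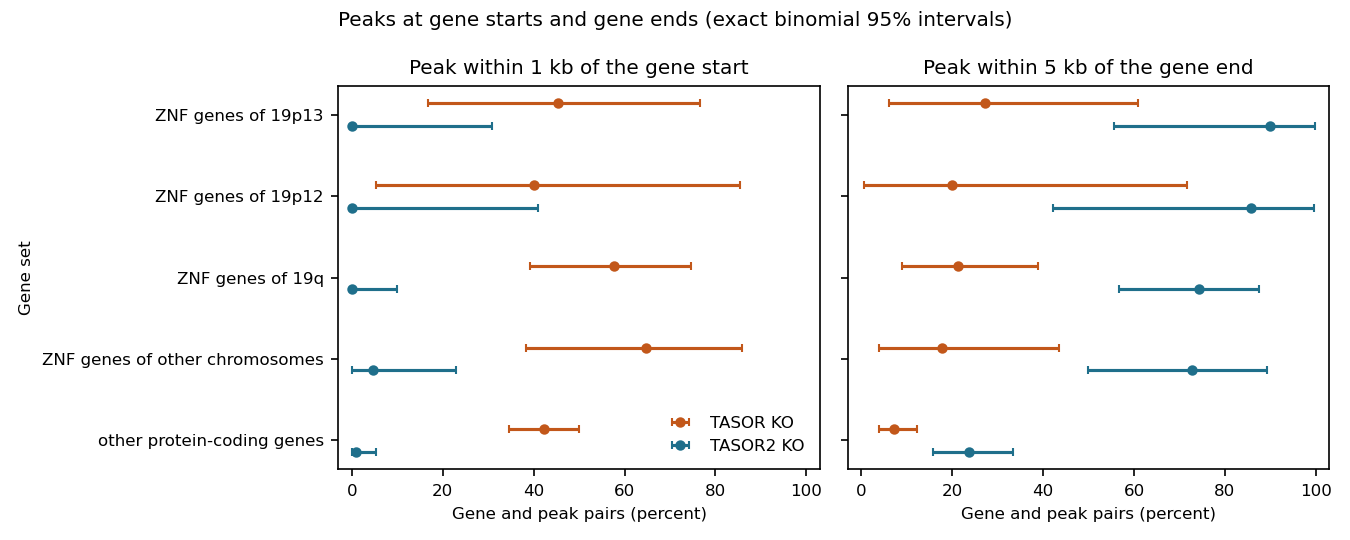
Points give the percent of gene and peak pairs with the peak within 1 kb of the gene start (left) or within 5 kb of the gene end (right), with exact binomial 95% intervals, by gene set (vertical axis) and list. At gene starts the TASOR KO points lie between 40% and 64.7% and the TASOR2 KO points below 5%, while at the ends of ZNF genes the TASOR2 KO points lie between 72.7% and 90%.

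No peak of either list was found at 55 members (66.3%, 55.1 to 76.3), 29 in 19p13 and 26 in 19p12. Their median length was 29.6 kb (4.49 to 90.5), against 25.1 kb and 25.9 kb in the members with a TASOR KO and a TASOR2 KO peak. This order did not hold within 19p13, where the medians were 18.7 kb without a peak and 23.1 kb with a peak of either list. In 19p12 they were 34.7 kb without a peak, 30.4 kb with a TASOR KO peak and 40.6 kb with a TASOR2 KO peak. On 19p13 the 9 members nearest the chromosome tip, ZNF554, ZNF555, ZNF556, ZNF57, ZNF77, ZNF557, ZNF358, ZNF414 and ZNF558, had none. The others there were ZNF699, ZNF562, ZNF846, ZNF653, ZNF441, ZNF491, ZNF439, ZNF433, ZNF878, ZNF844, ZNF20, ZNF625, ZNF44, ZNF563, ZNF442, ZNF799, ZNF443, ZNF709, ZNF490 and ZNF333.

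On 19p12, 15 neighbouring members over 1.95 Mb (21804946 to 23758891) had no peak of either list. They were ZNF43, ZNF208, ZNF257, ZNF676, ZNF729, ZNF98, ZNF492, ZNF99, ZNF723, ZNF728, ZNF730, ZNF724, ZNF675, ZNF681 and ZNF91, the SVA binding gene. Between its peaks at ZNF100 and ZNF726 the TASOR KO list had none for 2.21 Mb, and between its peaks at ZNF100 and ZNF254 the TASOR2 KO list had none for 2.40 Mb. The other 19p12 members without a peak were ZNF506, ZNF682, ZNF90, ZNF486, ZNF737, ZNF626, ZNF66, ZNF85, ZNF430, ZNF738 and ZNF429. The lists are parts of longer numbered lists. On 19p the 26 TASOR KO peaks carry numbers that span 106, and the 20 TASOR2 KO peaks carry numbers that span 24, and the sources used here do not say how peaks were selected into the lists. A missing peak is therefore no measure of absent binding.

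The window decided few members. Just inside 1 kb, without touching the gene body, were ZNF726 in TASOR KO (0.773 kb away) and ZNF254 in TASOR2 KO (0.341 kb). Just outside was ZNF625, 3.21 kb from the TASOR KO peak at ZNF136. A TASOR KO peak over ZNF433-AS1 lay 4.25 kb from ZNF763 and 4.64 kb from ZNF69, both of which had another peak.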

How the data were processed

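The deposited peak lists of 2 libraries were used, with 427 peaks for TASOR KO and 264 for TASOR2 KO. The submitters' processing notes name Bowtie2 (2.3.5.1), MACS2, deepTools and the builds hg38 and mm9. For the control and the use of the spike-in, the sources used here give nothing. They state no thresholds either, but the peak names carry tags with unlike numbers in the lists. What the tags mean is not stated. The lists also end at unlike −log10 q values, so counts from them may rest on unlike thresholds. The lists have no header and follow the column order of MACS2 broad peaks, and peak names show that each library was called separately. The score is the authors' own, as deposited. The fold enrichment of each peak, a ratio, is also as deposited by the authors. The −log10 p-value and −log10 q-value of each peak are likewise the authors' values. Samples were grouped by their labels.

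Gene positions came from a RefSeq table and strand from a RefSeq promoter table, both of GRCh38.p14. Strand was found for 15842 of 20037 protein-coding genes and 73 of 83 members. Overlap meant 1 bp or more, and coordinates are 1-based on chromosome 19 of hg38. Motifs were searched in the 250 bases before the start, where the whole RefSeq windows, which reach past the start, had been planned. Shares carry exact (Clopper-Pearson) 95% intervals, and odds ratios exact conditional ones. These describe the lists, and no test between genotypes was possible. Members, lists and rules were chosen with earlier results of these data known. Every member with a peak was named. Promoters were printed for the 3 highest scoring covering peaks, and the 75-base stretches of 4 genes were added after the sequences were seen. Alternatives were the window, the q threshold, equal list lengths, the peak centre and the distance to gene ends. The code that assigns peaks was checked on simulated peaks planted close to the ends of genes with a strand. At each end in each list 200 of 200 were recovered. This checks the handling of coordinates only, and not overlapping entries, alternative starts or missing strands. Planned counts of zinc fingers per protein, and the gene set defined by them, were not run because no protein sequence was used here. Versions were Python 3.11.15, pandas 2.3.3, numpy 2.4.6, matplotlib 3.10.9 and scipy 1.17.1.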

Additional observations from a re-analysis of the deposited data

How the results depend on the processing

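Of 71 alternative values over 13 results, 53 kept within 1.5 times the count, or, for odds ratios, kept both their side of 1 and whether the interval included 1. The other 18 did not. The largest change came from a q of 0.05 or less. Members with a peak then fell to 4 in TASOR KO (4 in 19p13, 0 in 19p12) and 3 in TASOR2 KO (1 and 2), with 1 in both lists. The odds ratio of 19p13 over 19p12 was then 0.393 in TASOR2 KO and could not be computed in TASOR KO. Pairs at the start were then 3 in TASOR KO, and pairs within 1 kb of the end 0 in TASOR KO and 2 in TASOR2 KO. With equal numbers of peaks, 2 members of 19p12 had a TASOR KO peak and the odds ratio was 5.40. With the peak centre required within 1 kb, TASOR KO pairs were 4 at the start and 1 at the end, and TASOR2 KO pairs 5 at the end. Within 5 kb, TASOR2 KO pairs at the end were 15. Leaving out ZNF69 and taking starts from the promoter table were alternatives chosen after seeing the data. Without ZNF69 the TASOR2 KO odds ratio was 0.907. Under every alternative run, TASOR2 KO pairs at the start stayed at 0. No paired analysis was possible because there was only 1 library of each line, and none could be left out. Depth is unknown. The alternative gene set by zinc finger pattern was not run.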

Other observations

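Peaks of 19p that were not at a member were mostly at zinc finger loci or noncoding genes. In TASOR KO, 9 of 26 peaks lay at no member. Of these, 2 lay at the pseudogenes ZNF812P (9698953 to 9703128, −log10 q 1.504) and ZNF887P (−log10 q 0.373), 4 at noncoding RNA genes, among them ZNF433-AS1, and 3 at the coding genes SLC39A3, FBXL12 and UBL5. The SLC39A3 peak (2739522 to 2740329, −log10 q 4.98) was stronger than any at a member. In TASOR2 KO, 3 of 20 peaks lay at no member, 1 each at the pseudogene ZNF788P (−log10 q 0.850), a noncoding RNA gene and MYO1F (8552868 to 8555814), where the −log10 q of 4.54 was again above that of any member.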
